A study of Mus musculus with 2 samples.

Results

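The genes that carry fatty acids from capillary blood into the heart muscle cell, 10 in all, were described in 2 mouse hearts: Lpl, Gpihbp1, Lmf1, Cd36, Fabp3, Fabp4, Fabp5, Slc27a1, Slc27a6 and Angptl4. They were taken by symbol from the 55536 genes of the deposited gene tables, all 10 were found, and they were sorted by textbook knowledge into 3 endothelial genes (Gpihbp1, Fabp4, Fabp5), 5 muscle genes (Lpl, Lmf1, Fabp3, Slc27a1, Slc27a6), 1 gene made in both cell types (Cd36) and 1 secreted inhibitor of the lipase (Angptl4). The sorting was not tested here, and a gene placed in 1 cell type, such as Lmf1, may be made in others. Total RNA was sequenced from whole hearts of 2 male B6CASTF1/J mice aged 25 days, for which no treatment is named, with 1 library per heart, each begun from 300 ng of RNA with synthetic spike-in RNAs added. These animals are first-generation hybrids that carry 1 C57BL/6J and 1 CAST/EiJ genome, and the tables give no separate values for the 2 alleles. The labels number the hearts as biological replicates 1 and 2 and name 2 animals of a tissue bank, but list 1 donor identifier for both. The hearts form a single group, so levels are given as descriptions and no test between groups was possible. The tables held 38253821 estimated gene counts for replicate 1 and 40655101 for replicate 2, of which the 10 genes took 0.547% and 0.542%.

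The heart draws much of its energy from long-chain fatty acids. Lipoprotein lipase, made mainly by the muscle cells, is moved to the capillary lumen, where it frees fatty acids from triglyceride-rich lipoproteins. The fatty acids then cross the endothelial cell and enter the muscle cell with the help of the membrane protein CD36, of transport proteins that couple uptake to acyl-CoA formation, and of small cytosolic binding proteins that differ between endothelium and muscle.

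Levels are given as TPM, an abundance corrected for transcript length and scaled to a common total, which allows genes to be compared within a heart. Of the 10 genes, 9 reached 1 TPM in both hearts, 8 reached 10 TPM and 4 reached 100 TPM. Among all genes of the tables, 21.3% reached 1 TPM, 8.64% reached 10 TPM and 0.981% reached 100 TPM in both hearts. The 4 at the top were Fabp3, Lpl, Cd36 and Fabp4, which ranked 38th, 55th, 110th and 238th of all genes by mean TPM. From the top down the order was Fabp3, Lpl, Cd36, Fabp4, Slc27a1, Gpihbp1, Fabp5, Lmf1, Angptl4 and Slc27a6. Neighbours in this order were called separated when the order was the same in both hearts and the mean log2 ratio of TPM + 0.1 exceeded its SD over the hearts. By that rule 8 of 9 neighbouring pairs were separated, the exception being Lmf1 and Angptl4, whose order differed between the hearts. The order was taken from these same 2 hearts, so the count describes it and is no test of it. A share of separated pairs over all genes was not computed. With 2 hearts, an exact two-sided sign-flip test cannot go below p = 0.5, so no p is given for any ratio.

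**Figure D1:**
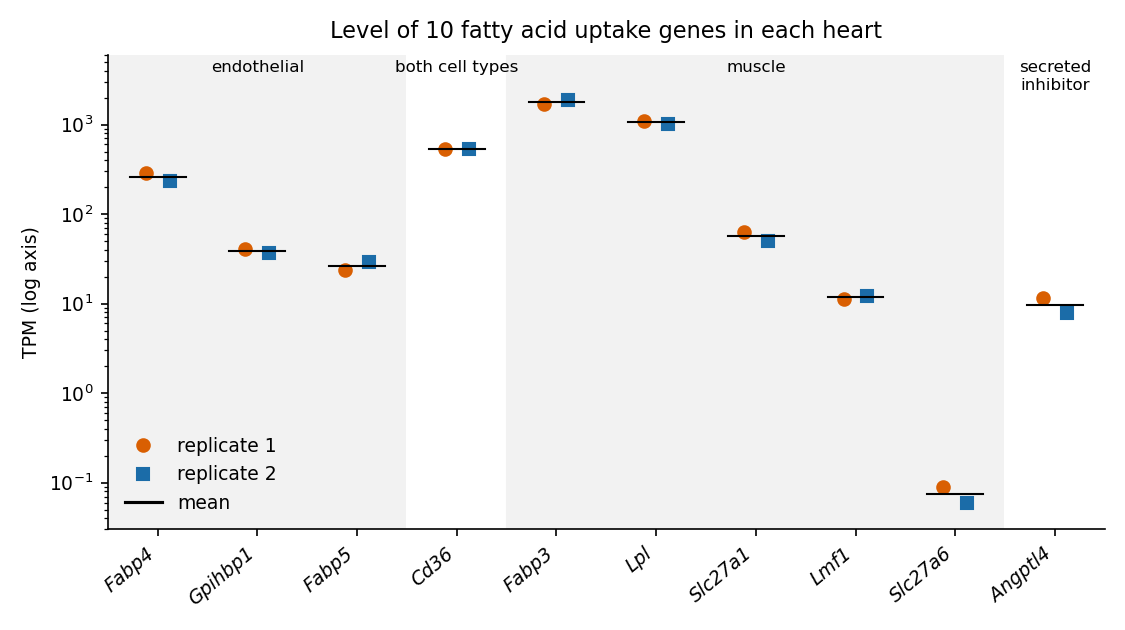
TPM of each of the 10 genes in replicate 1 (circles) and replicate 2 (squares) on a log axis, with a bar at the mean, grouped by the cell type that textbook knowledge assigns. Levels run over more than 4 orders of magnitude, with Fabp3 at 1782 TPM and Slc27a6 at 0.0750 TPM on average. The hearts differ far less than that. They lie farthest apart, relative to the mean, for Slc27a6 (0.0900 and 0.0600 TPM) and Angptl4 (11.4 and 7.77 TPM).

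RNA of the lipase itself was far more abundant than RNA of its partners. Lpl (ENSMUSG00000015568.16, chr8:68880491-68907448 on the plus strand of mm10), which encodes lipoprotein lipase, had 1085 TPM in replicate 1 and 1026 in replicate 2, a mean of 1055 ± 42.0 TPM (SD, n = 2). These values rest on 119479 and 122616 estimated counts, the most of the 10 genes. Lmf1 (ENSMUSG00000002279.19, chr17:25579085-25662826, plus strand), whose product in the endoplasmic reticulum is needed for lipase to fold and leave the cell, had 11.2 and 12.3 TPM, a mean of 11.7 ± 0.764. Lpl exceeded Lmf1 by 6.48 ± 0.15 on the log2 scale, or 89.4-fold, in the TPM ratio within a heart.

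Gpihbp1 (ENSMUSG00000022579.10, chr15:75596628-75599481, plus strand) encodes the endothelial protein that binds lipase and carries it across the capillary wall. It had 40.8 TPM in replicate 1 and 37.2 in replicate 2, a mean of 39.0 ± 2.59, so both hearts held far less of this anchor's RNA than of the lipase's. The log2 ratio of Lpl over Gpihbp1 was 4.76 ± 0.04, a 27.0-fold difference. Angptl4 (ENSMUSG00000002289.16, chr17:33773750-33781830, minus strand), a secreted inhibitor that inactivates lipoprotein lipase, was lower still, with 11.4 TPM in replicate 1 and 7.77 in replicate 2. Lpl over Angptl4 gave a log2 ratio of 6.79 ± 0.33, and Gpihbp1 over Angptl4 gave 2.04 ± 0.29. These ratios take all transcripts of a gene together, whether annotated as coding or not. In the first of 2 deposited quantifications, coding transcripts held 15.1% of Angptl4's abundance on average, 71.3% of Lpl's and 96.8% of Gpihbp1's.

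Other genes that act on the lipase were described from a list of 12. Of these, 4 reached 1 TPM in both hearts, and the list's median was 0.252 TPM, beside 47.7 TPM for the 10 uptake genes. Its most abundant genes were Furin, a proprotein convertase that can cleave lipase and angiopoietin-like proteins, with 40.9 and 37.9 TPM, and Sel1l, an adaptor of endoplasmic reticulum protein quality control that is also needed for lipase secretion, with 18.5 and 22.3 TPM. The convertase gene Pcsk6 followed with 14.0 and 16.4 TPM. Apoa5, which encodes a lipase-activating apolipoprotein made in liver, and Pnlip, the pancreatic lipase gene, were at a count of 0 in both hearts. A zero at this depth still permits as many as 3 counts, which is 0.0784 and 0.0738 CPM (counts scaled to a common library total). Among 8 lipoprotein receptors and matrix proteins that hold lipoproteins, 7 reached 1 TPM. They were led by Hspg2 (perlecan) with 86.4 and 89.0 TPM, the VLDL receptor gene Vldlr with 77.0 and 67.5 TPM, and Lrp1 with 31.4 and 25.3 TPM. Each of these 3 receptor or matrix genes thus lay below Lpl and, apart from Lrp1, above Gpihbp1 in both hearts.

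Cd36 (ENSMUSG00000002944.15, chr5:17781690-17888801, minus strand) encodes the fatty acid translocase found in the membranes of both endothelial and muscle cells. It had 536.6 TPM in replicate 1 and 537.1 TPM in replicate 2, on 34105 and 36152 counts. The mean was 537 ± 0.332 TPM, at 0.0619% the smallest spread of the 10 genes relative to the mean in the first of 2 deposited quantifications. That near-equality depended on the table. The second quantification had Cd36 at 555 and 579 TPM, with an SD of 17.3, and Lpl at 1191 and 1186 TPM, with an SD of 3.33. A whole heart gives 1 value for both cell types, so the endothelial and the muscle shares of Cd36 RNA cannot be told apart.

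The cytosolic carriers were dominated by the muscle form. Fabp3 (ENSMUSG00000028773.8, chr4:130308595-130315463, plus strand), the heart fatty acid-binding protein, had 1698 TPM in replicate 1 and 1866 in replicate 2, a mean of 1782 ± 119. Fabp4 (ENSMUSG00000062515.3, chr3:10204088-10208576, minus strand), which capillary endothelial cells, adipocytes and macrophages make, had 285 and 237 TPM, a mean of 261 ± 33.7. Fabp5 (ENSMUSG00000027533.10, chr3:10012548-10016607, plus strand), the other binding protein of heart capillary endothelium, had 24.0 and 29.1 TPM, a mean of 26.5 ± 3.57. Within a heart, Fabp3 exceeded Fabp4 by 2.78 ± 0.28 and Fabp5 by 6.07 ± 0.10 on the log2 scale, or 6.85-fold and 67.1-fold. The second quantification had Fabp3 at 2479 and 2850 TPM on 39689 and 46332 counts, so the TPM of Fabp3 depended more on the table than its counts did. The endothelial pair was itself unequal, with a log2 ratio of Fabp4 over Fabp5 of 3.29 ± 0.38.

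These 3 genes are relatives, and the likeness of their coding sequences is shown because it bears on whether reads can be told apart. Over the aligned coding sequences, Fabp3 and Fabp4 had the same base at 63.9% of 399 positions, Fabp3 and Fabp5 at 56.0% of 402, and Fabp4 and Fabp5 at 60.9% of 399. Below are 90 bases from near the start of each coding sequence, read from the GENCODE M21 transcripts, with capitals at the 44 positions where all 3 genes have the same base.
Fabp3: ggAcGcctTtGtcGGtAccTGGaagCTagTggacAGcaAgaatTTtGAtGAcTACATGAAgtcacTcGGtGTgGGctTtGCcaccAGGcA
Fabp4: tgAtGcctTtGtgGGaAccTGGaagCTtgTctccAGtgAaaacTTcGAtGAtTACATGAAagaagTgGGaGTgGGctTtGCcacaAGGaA
Fabp5: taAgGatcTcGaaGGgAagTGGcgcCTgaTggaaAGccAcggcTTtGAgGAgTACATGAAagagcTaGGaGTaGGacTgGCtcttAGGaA
The longest run of identical bases between any 2 of them, over the whole aligned coding sequence, was 14 bases.

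Processed pseudogenes, intronless copies elsewhere in the genome, were closer to these genes than the genes were to each other. Of the 100-base windows of the Fabp3 transcript, 21.7% also occurred in Fabp3-ps1, and 9.01% of those of Fabp5 occurred in Gm6166 or Gm14328. The first of 2 deposited quantifications gave Fabp3-ps1 155 counts in replicate 1 and 246 in replicate 2, beside 40191 and 47485 for Fabp3. It gave Gm6166 110 and 112 counts, beside 756 and 975 for Fabp5, whereas the second quantification gave Gm6166 0 counts in both hearts. Reads that these genes share with their copies are divided by estimation, so the level of Fabp5 is uncertain by up to about those counts, and that of Fabp3 much less in proportion. Fabp3 also shares 80 bases with Gm10570 and 81 with Zcchc17 on the opposite strand, and the counting setting for strand is not given in the sources used here. The other 8 uptake genes had no 100-base window in common with another gene and no overlapping gene.

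Within the fatty acid-binding protein family of 9 genes, Fabp3 took 84.6% of the summed TPM in replicate 1 and 87.5% in replicate 2. Fabp4 took 14.2% and 11.1%, and Fabp5 took 1.20% and 1.36%. Of the other 6 family genes, none reached 1 TPM in both hearts. Fabp7, the brain form, was the highest of them with 0.730 and 0.560 TPM, and Fabp2, Fabp6 and Fabp9, known from intestine, ileum and testis, were at a count of 0 in both hearts. For Fabp9 this held in the first quantification only, since the second gave it a mean of 0.154 TPM.

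The pair of fatty acid transport proteins had the widest gap of the 12 pairs of uptake genes compared. Slc27a1 (ENSMUSG00000031808.7, chr8:71568882-71587302, plus strand), the transport protein of muscle and fat, had 62.6 TPM in replicate 1 and 50.1 in replicate 2, a mean of 56.3 ± 8.80. Slc27a6 (ENSMUSG00000024600.8), whose human counterpart is known as a transport protein of heart muscle, had 0.0900 and 0.0600 TPM, on 7 and 5 counts. It was the only uptake gene below a mean of 1 CPM. The log2 ratio of Slc27a1 over Slc27a6 was 8.33 ± 0.05, which understates the gap because 0.1 TPM was added to both. In the family of 6, Slc27a1 took 89.3% of the summed TPM in replicate 1 and 87.6% in replicate 2, and Slc27a4, which is widely expressed, took 9.38% and 11.7%. The 4 genes other than Slc27a1 and Slc27a6 included 1 that reached 1 TPM, Slc27a4 at 6.57 and 6.70 TPM, and 1 at a count of 0 in both hearts, Slc27a5, a liver form.

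Acyl-CoA synthetases trap the fatty acid in the muscle cell by joining it to coenzyme A. Of 7 such genes, 4 reached 1 TPM in both hearts, and Acsl1, the main form of heart, took 96.9% and 96.8% of their summed TPM with 296 TPM in replicate 1 and 301 in replicate 2. Acsl5 and Acsl4 followed with means of 3.99 ± 0.177 and 3.24 ± 0.0212 TPM, and Acsbg2 was at a count of 0 in both hearts. Each of the 3 families thus had 1 gene that held at least 84.6% of the family's abundance in either heart.

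**Figure D2:**
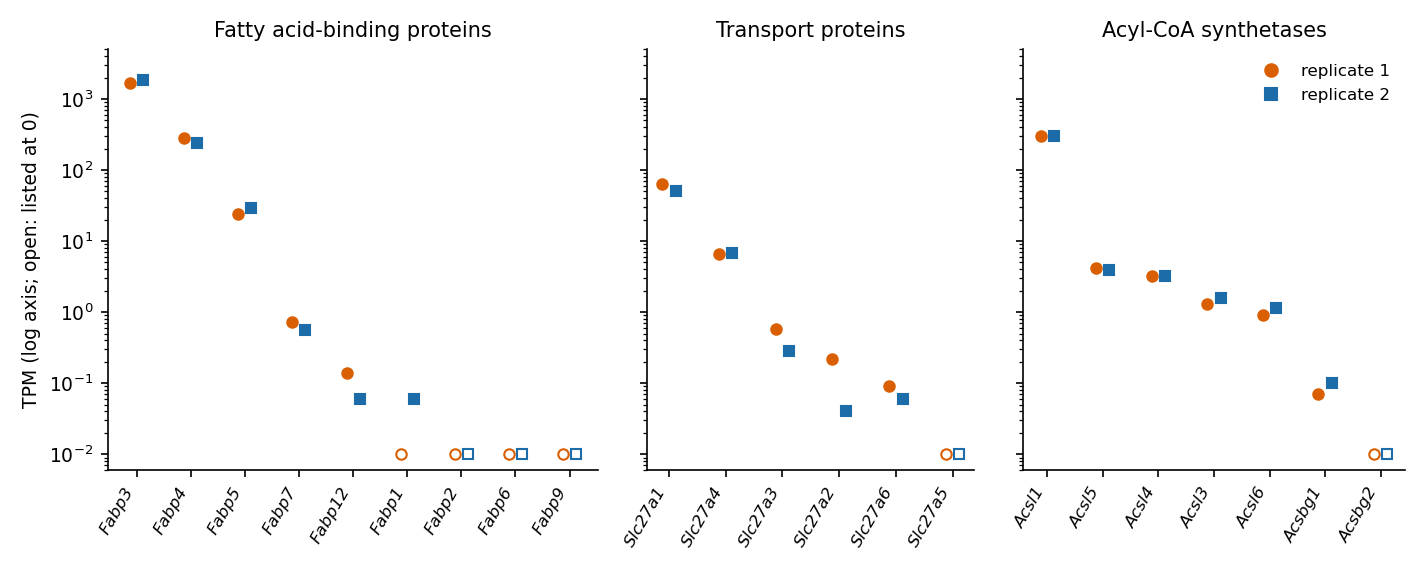
TPM on a log axis of the 9 fatty acid-binding protein, 6 transport protein and 7 acyl-CoA synthetase genes in replicate 1 (circles) and replicate 2 (squares), in order of the summed level, with genes listed at 0 drawn as open symbols at the foot of the axis. In each family 1 gene stands well above the rest: Fabp3, Slc27a1 and Acsl1.

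Set against each other, the muscle genes were more abundant in sum. The 5 muscle genes together had 2856 TPM in replicate 1 and 2954 in replicate 2, and the 3 endothelial genes had 349 and 303 TPM. The groups were not separate gene by gene, since the endothelial gene Fabp4 lay above the muscle genes Slc27a1, Lmf1 and Slc27a6 in both hearts. Each of the 12 pairs compared within hearts was separated by the rule above, among them Fabp3 over Cd36, with a log2 ratio of 1.73 ± 0.10, Cd36 over Slc27a1, with 3.26 ± 0.23, and the endothelial pair Fabp4 over Gpihbp1, with 2.73 ± 0.09. That count describes the chosen pairs and is no test of them. A share over all pairs of genes was not computed.

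The tissue was checked by markers. All 12 general endothelial markers and all 8 capillary markers reached 1 TPM in both hearts, with medians of 22.1 and 16.4 TPM. Egfl7, Pecam1 and Cdh5 led the first list with means of 54.2, 44.2 and 43.1 TPM, and Aqp1, the capillary water channel, led the second with 164 TPM. Gpihbp1 lay within the range of the endothelial markers, whereas Fabp4 lay above every gene of both lists. The 10 cardiomyocyte markers had a median of 3980 TPM, above each of the muscle uptake genes.

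The split of each gene's abundance among its annotated transcripts was read next, and Angptl4 had the smallest coding share of the 10 genes. In the first quantification, 83.3% ± 1.68 of its abundance (84.5% in replicate 1, 82.1% in replicate 2) was assigned to Angptl4-202, a transcript that GENCODE classes as a target of nonsense-mediated decay, the degradation of RNA with an early stop codon. The full coding transcript Angptl4-201 took 15.5% and 14.6%. The second quantification gave Angptl4-202 77.1% and 79.7%. The transcripts differ in the third exon, which begins 4 bases later in Angptl4-202, leaving an annotated coding sequence of 155 codons, stop included, against 411 in Angptl4-201. Angptl4-201 is also longer, 3308 bases against 1859, and Angptl4-202 has no base of its own, so the shares rest on the join and on how reads fall over the 1449 bases that only Angptl4-201 has. Both joins are shown as 15 bases before it in lower case and 15 after it in capitals, on the minus strand of chromosome 17, where the last base before the join is 33780783 and the first after it is 33780647 in Angptl4-201 and 33780643 in Angptl4-202.
Angptl4-201: aatcttcagagccagATAGACCTCTTGGCC
Angptl4-202: aatcttcagagccagACCTCTTGGCCCCCA
The tables hold no reads per join, so whether reads crossed either one was not tested.

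Lpl and Lmf1 also had a sizeable share in the decay class, but of different kinds. Lpl-201 took 70.5% of Lpl's abundance in replicate 1 and 72.1% in replicate 2, and Lpl-203, classed as a decay target, took 29.0% and 27.5%, or 20.97% and 20.08% in the second quantification. Both have the same coding sequence of 475 codons, and Lpl-203 differs by a join 61 bases after the stop codon, where Lpl-201 runs on in the same exon. The class is therefore one of the untranslated end, and the annotated lipase is the same. Lmf1-202 took 51.8% and 49.9%, while the decay target Lmf1-206, which goes from the first exon past 2 exons of Lmf1-202, took 30.7% and 36.6% and has 65 codons against 575. The second quantification turned the order for Lmf1 round, with 37.6% and 42.3% for Lmf1-206. Below, capitals mark the bases after position 68904567 of chromosome 8 for Lpl and after 25579379 of chromosome 17 for Lmf1, both on the plus strand.
Lpl-201: acagaagaaaacaaaGTAAATTTAATTTAA
Lpl-203: acagaagaaaacaaaATGGGACACCGCATC
Lmf1-202: tcgctttcatttactTTGTGGCCTTTTTGG
Lmf1-206: tcgctttcatttactGATGGGAGTCACAGC

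Cd36 was assigned to coding transcripts alone, but which of them led depended on the table. Cd36-203 and Cd36-202 differ in their first exons, upstream of the coding sequence, and have the same coding sequence of 473 codons. Cd36-205, a transcript of 702 bases and 5 exons, is too short to hold that coding sequence. In the first quantification Cd36-203 held 37.9% in replicate 1 and 35.6% in replicate 2, and Cd36-202 held 9.47% and 11.7%. Cd36-205 held 34.2% and 35.8%, and so led in replicate 2. In the second, Cd36-203 held 0.366% and 0.920%, Cd36-202 held 46.1% and 45.3%, and Cd36-205 held 25.2% and 26.4%. The level of the gene hardly depended on this, at 537 TPM in the first and 567 TPM in the second quantification on average, so the split among transcripts depended on the table far more than the level did. The first exons of Cd36-203 and Cd36-202 are told apart by the bases in lower case here, and the capitals mark the shared second exon, whose first base is 17835671 on the minus strand of chromosome 5.
Cd36-203: ctgttctagaagttgCTGCCTTCTGAAATG
Cd36-202: gattacttctgtgtaCTGCCTTCTGAAATG

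Slc27a1 also had most of its abundance outside coding transcripts, in both quantifications. Transcripts with a retained intron held 42.8% in replicate 1 and 43.6% in replicate 2, and coding transcripts held 41.7% and 38.6%. In the second quantification the single coding transcript Slc27a1-207 led with 48.0% and 46.9%. Libraries of total RNA also hold unspliced precursor RNA, and its part in these shares was not tested. The binding proteins and Gpihbp1 were simpler: coding transcripts held 98.7% of Fabp4, 96.9% of Fabp5 and 96.8% of Gpihbp1 on average, and Fabp3 and Slc27a6 have a single annotated transcript.

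Of the 8 uptake genes with more than 1 transcript, in the first quantification 3 had more than 25% of their abundance in the decay class (Lpl, Lmf1 and Angptl4), where 4.64% of 10019 genes did, and 2 had less than 50% in coding transcripts (Slc27a1 and Angptl4), where 8.43% did. Both thresholds were chosen after the values were seen, and the counts depended on the table. In the second quantification 2 of the 8 passed 25% in the decay class (Lmf1 and Angptl4, without Lpl), where 5.77% of 10012 genes did, and 3 fell below 50% in coding transcripts (Lmf1 with a mean of 48.1%, Slc27a1 and Angptl4), where 10.2% did. In the first quantification, the median coding share was 84.0% over the 8 genes and 90.8% over the 10019. There the same transcript led in both hearts in 7 of the 8 genes, Cd36 being the exception. In the second quantification it did so in all 8. The same transcript led in both hearts and both quantifications in 5.

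**Figure D3:**
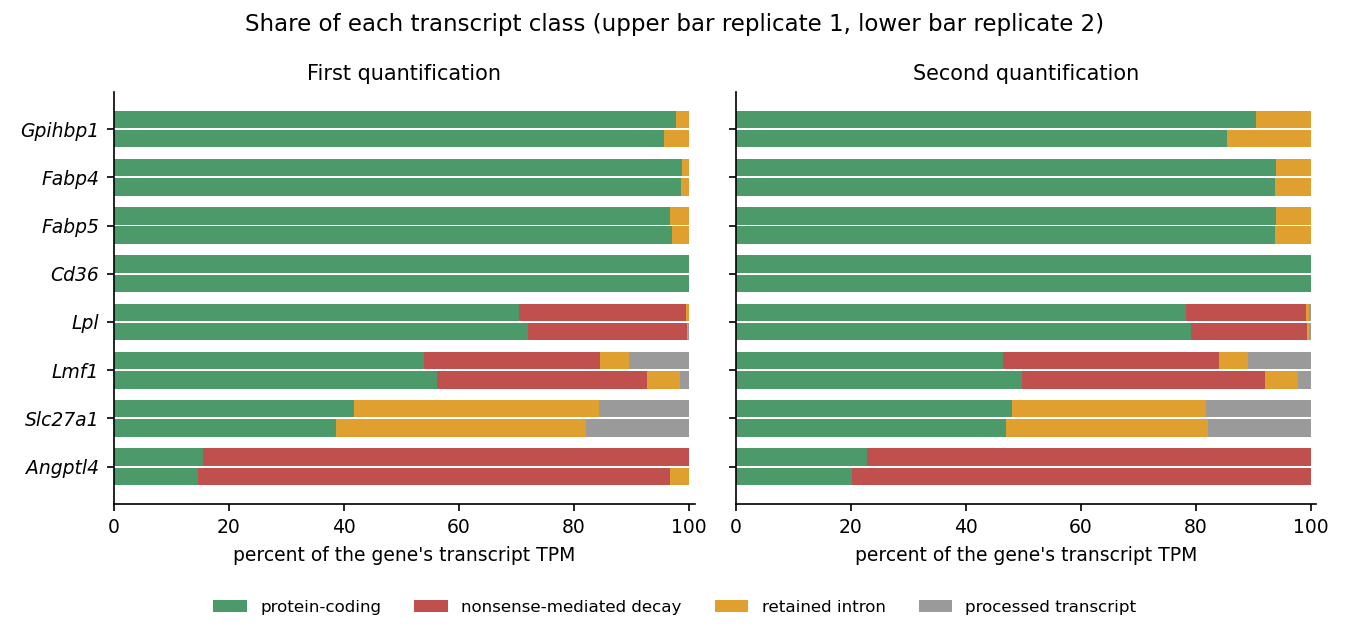
Percent of each gene's transcript TPM in protein-coding, nonsense-mediated decay, retained-intron and processed transcripts, for the 8 uptake genes with more than 1 annotated transcript, with replicate 1 as the upper and replicate 2 as the lower bar, in the first (left) and second (right) quantification. Angptl4 is mostly in the decay class in both panels, at 83.3% and 78.4% on average, and Slc27a1 is mostly outside coding transcripts.

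The last comparison was between the 2 hearts, as the ratio of replicate 1 over replicate 2 of estimated counts scaled by TMM, a factor that sets the bulk of genes level. Each heart is 1 library, so a difference has no replicate check, and the intervals given are exact binomial 95% intervals that cover counting error only. The filter at a mean of 1 CPM left 12911 genes, of which 0.898% differed by at least 2-fold with the higher value in replicate 1, and 0.294% with the higher value in replicate 2. None of the 9 uptake genes past that filter differed by so much. The median absolute log2 ratio was 0.19 over the 9 genes and 0.12 over all 12911. The common coefficient of variation between hearts, from edgeR, was 10.8%.

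Angptl4 was the farthest apart, with a log2 ratio of 0.63 (interval 0.47 to 0.80), or 1.55-fold, on 742 counts in replicate 1 and 527 in replicate 2, and 3.81% of all genes were at least as far apart. Slc27a1 had a ratio of 0.39 (0.33 to 0.45) on 4605 and 3865 counts, and Fabp4 one of 0.29 (0.25 to 0.34) on 7808 and 7021. Those were the 3 with the largest ratios above 0, all higher in replicate 1. Fabp5 had a ratio of -0.23 (-0.37 to -0.09), so the endothelial binding proteins lay on opposite sides of 0. Lmf1 had -0.19 (-0.35 to -0.03), and Fabp3 had -0.10 (-0.12 to -0.08), which became 0.043 when the hearts were scaled by spike-in totals. Spike-in scaling moved the median log2 ratio of all genes to 0.14 from -0.01 under TMM. Lpl, Cd36 and Gpihbp1 had ratios of 0.10, 0.06 and 0.13, and the interval of Gpihbp1, with an upper bound of 0.26, took in 0. Scaled by library totals instead, Lpl had 0.05 and Cd36 0.004, both outside their intervals under TMM. Spike-in scaling moved 6 ratios besides that of Fabp3 outside their intervals.

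Markers of other cell types moved between the same hearts. Of 10 adipocyte markers, 9 passed the filter, all 9 were higher in replicate 1, 7 of them by 2-fold or more, and none was at 0. Their summed level was 456 TPM in replicate 1 and 122 in replicate 2, led by Cfd (adipsin) with 174 and 22.1 TPM, Car3 with 128 and 22.9 TPM, and Plin4 with 64.7 and 48.2 TPM. Plin4 was 1 of the 2 past the filter that differed by less than 2-fold, whereas Adipoq (adiponectin) had 25.0 and 4.05 TPM. Adipocytes make uptake genes too, among them Fabp4, Lpl, Cd36, Slc27a1 and Angptl4, a list that is not complete. The part of these cells in the ratio of any uptake gene, above or below 0, was not tested. In whole tissue, fewer cells of a type and less RNA per cell cannot be told apart.

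The endothelial markers did not move in that way. Their summed level was 296 TPM in replicate 1 and 317 in replicate 2, none was at 0, none of the 12 was 2-fold apart, and their median log2 ratio was -0.08, with 4 above 0 and 8 below. Under spike-in scaling that median was 0.06. The 8 capillary markers had a median of 0.16 and a range of -0.36 to 0.44, and the 10 cardiomyocyte markers one of -0.06. Of the 7 macrophage markers past the filter, 1 was 2-fold apart, Lyz2 with 83.1 and 42.4 TPM, and the 5 erythroid markers summed to 46562 TPM in replicate 1 and 23411 in replicate 2. The ratio of Fabp4 lay above the median of the endothelial markers and within the range of the capillary markers. It lay below the median of the adipocyte markers, 2.53. More than 1 of these cell types makes Fabp4, so these positions do not assign its ratio to any of them. The source of the difference was not tested.

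**Figure D4:**
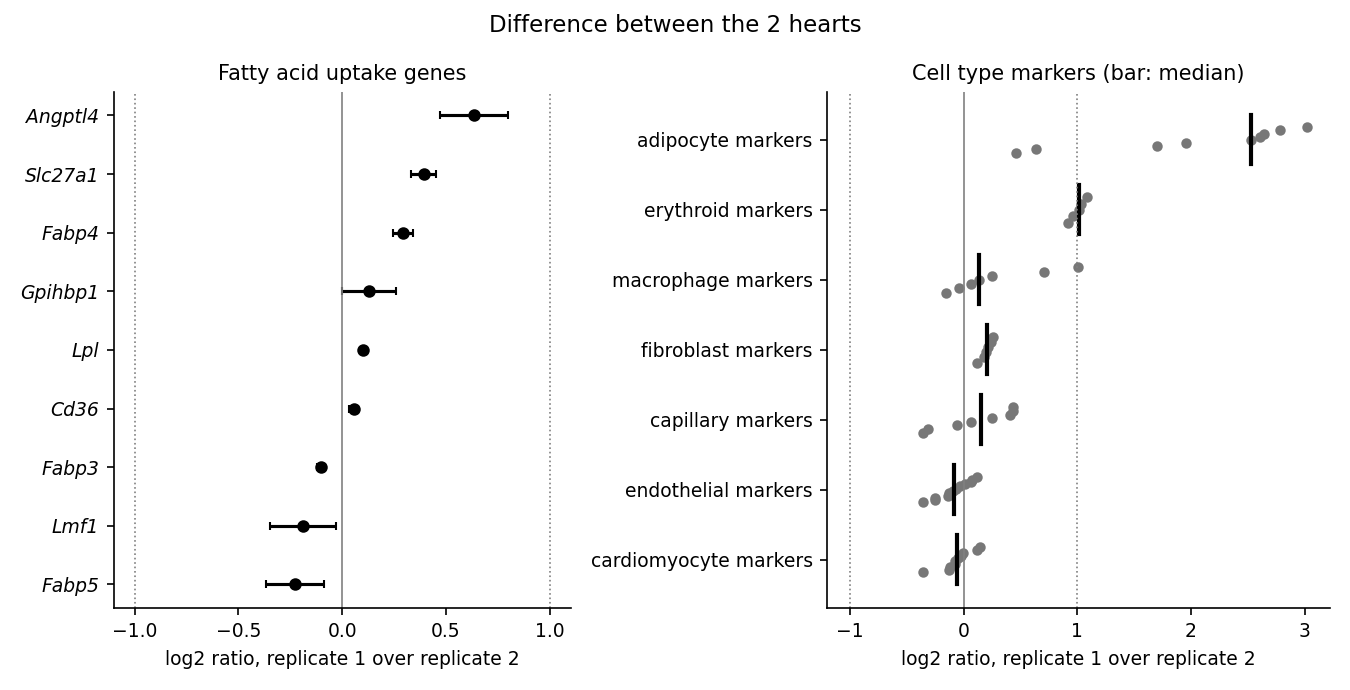
Left, log2 ratio of replicate 1 over replicate 2 for the 9 uptake genes past the filter, with exact binomial 95% intervals. Right, the same ratio for the markers of 7 cell types, 1 point per gene with a bar at the median, and dotted lines at 2-fold in both panels: the uptake genes all lie within 2-fold, while 7 of 9 adipocyte markers lie beyond it.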

How the data were processed

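Estimated counts, TPM and the percent of each gene's abundance per transcript were deposited by the authors in gene and transcript tables with the column names that RSEM writes (the first quantification). A second transcript table of estimated counts and TPM, deposited by the authors, has the column names of kallisto and was summed per gene here. The deposited text files name assembly mm10 and GENCODE M21. The sources used here do not give the tools, their versions or strand settings. Transfer RNA rows (3 and 1.85 counts) and spike-ins were left out of gene totals. A filter at a mean of 1 CPM and a 2-fold threshold were used between hearts. edgeR 4.0.16 (TMM and dispersion, counts rounded), DESeq2 1.42.0 (size factors), R 4.3.3, scipy 1.17.1, pandas 2.3.3, matplotlib 3.10.9, numpy 2.4.6 and Python 3.11.15 served, and the ratios were tested on simulated counts. Coding sequences were aligned with MAFFT. The uptake genes and the gene lists were chosen with earlier results of these data known. Of pathway lists, the 3 genes of highest TPM and those at 0 were named. Of marker lists, the 3 highest and those 2-fold apart could be named. Spread between 2 samples may be technical.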

Additional observations from a re-analysis of the deposited data

How the results depend on the processing

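The order of the 10 genes by mean level was the same in the second quantification and with posterior mean TPM, and 12 of 12 pairs kept their direction in each alternative tried. The median level of the 10 genes was 58.1 TPM in the second quantification and 128 TPM when TPM were rescaled to protein-coding genes outside the mitochondrial genome, against 47.7 TPM as reported; Fabp3 averaged 2664 TPM in the second quantification. Calls of 2-fold with the higher value in replicate 1 or 2 numbered 2672 and 2129 with no filter (24582 genes) and 27 and 4 with a filter at 10 CPM (7288 genes), against 116 and 38. The share of these calls that were higher in replicate 1 was 75.3% under TMM and 86.9% under spike-in totals. The ratio of Fabp3 turned to 0.043 under spike-in totals, where the shift of all genes was larger than that ratio. List medians near 0, 5 in all, among them the endothelial and cardiomyocyte markers, turned sign under spike-in totals. Leaving out a heart gave medians from 43.6 to 51.7 TPM. Adding the estimated counts of the pseudogene copies, chosen after seeing the data, brought Fabp5 to 30.04 TPM, within its SD, and adding their TPM, which their own lengths set, brought it to 37.3 TPM. The share of the leading transcript moved by more than its SD in the second quantification in 8 of 8 genes. No paired analysis was possible because the hearts form 1 group.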

Other observations

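Transcription factors and signals that act on endothelial or muscle fatty acid handling were read in the same tables. All 10 genes of the endothelial list reached 1 TPM in both hearts, with a median of 13.7 TPM. Vegfb, a growth factor studied for its effect on endothelial fatty acid transport, had 144 TPM in replicate 1 and 154 in replicate 2, and its receptor genes had 27.3 and 39.2 TPM (Nrp1) and 24.6 and 22.1 TPM (Flt1). None of the 10 was 2-fold apart. Their median log2 ratio was -0.10, with 2 above 0 and 8 below. Under spike-in scaling that median turned to 0.04. Pparg, named after its value was seen, had the highest ratio of the list, 0.72, and Apln the lowest, -0.63. A whole heart gives 1 value for all cell types, so neither ratio can be assigned to endothelial cells.

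All 8 genes of the muscle list reached 1 TPM in both hearts, with a median of 19.9 TPM. Esrra, a nuclear receptor of mitochondrial genes, had 54.4 and 55.7 TPM, and Prkaa2, the catalytic kinase subunit of heart AMPK, had 25.8 and 28.4 TPM. Ppargc1a, a coactivator of oxidative metabolism, had 89.9 and 47.4 TPM, with a log2 ratio of 0.91, the farthest from 0 of the 8, against a list median of 0.12. Its difference has no replicate check.

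Platelet markers were also higher in replicate 1: the 3 past the filter had a median log2 ratio of 0.97, with Pf4 at 21.7 and 14.1 TPM and Itga2b at 2.83 and 1.61 TPM. The 6 fibroblast markers had ratios from 0.11 to 0.26. The 4 brown adipocyte markers past the filter had a median of -0.01, with 2 above 0 and 2 below, and were led by Cox7a1, which heart muscle also makes, with 910 and 983 TPM.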
